A study of Mus musculus with 16 samples.

Results

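The 36 genes described here encode the enzymes of glycolysis with their transporters and regulators, and the sensors, factors and targets of the hypoxia response. They were listed by name, and 36 of the 54193 genes in the files matched. Of these, 23 are glycolytic enzymes, enzymes that switch the flux, or transporters of glucose and lactate, and 13 are other members of the pathway of the hypoxia-inducible factor (HIF). RNA-seq had been performed on cultured mouse brain microvascular endothelial cells (mBMEC) to compare cells with and without Ccm3 and to compare propranolol with rapamycin in each. Ccm3, also called Pdcd10, is a gene whose loss in endothelium gives rise to cerebral cavernous malformations.

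All 16 libraries came from cells of adult Cdh5(PAC)-CreERT2/Pdcd10 fl/fl mice aged 8 to 10 weeks, in which an endothelial promoter drives a tamoxifen-dependent Cre. Each culture pooled the brains of several mice and was selected with puromycin. KO cells had received 4-hydroxytamoxifen (4-OHT), whereas WT cells carried the same alleles without 4-OHT, so the drug and the deletion cannot be told apart. Untreated cells gave 3 WT and 3 KO libraries. Propranolol (P), a beta-blocker, was given at 10 µM for 24 h and gave 3 KO+P and 2 WT+P libraries. Rapamycin (R), an inhibitor of mTORC1, was given at 100 nM for 24 h and gave 3 KO+R and 2 WT+R libraries. All cells grew in high-glucose medium in air with added CO2, so no group was exposed to hypoxia. The libraries held between 18.83 and 26.2 M estimated counts, and are numbered 1 to 3 as their labels number them. The labels call them biological replicates.

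Glycolysis splits glucose into pyruvate, and lactate dehydrogenase turns the pyruvate into lactate, which leaves the cell. Endothelial cells are known to draw most of their ATP from this route. In normal oxygen the EGLN prolyl hydroxylases mark the HIF alpha subunits for destruction, and when oxygen is short the stabilised subunits switch on genes for glucose uptake, most glycolytic enzymes and blood vessel growth. mTORC1 is known to raise the synthesis of HIF and the expression of glycolytic genes.

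Before the results, the labels were checked on Pdcd10 itself. KO libraries held 9.72, 11.0 and 9.73 CPM of Pdcd10, where CPM is the estimated count relative to the total of the library after TMM scaling. WT libraries held 11.5, 31.2 and 47.0 CPM, WT+P libraries 60.8 and 32.5, and WT+R libraries 52.0 and 27.7. KO+P libraries held 16.7, 13.9 and 13.1 CPM, and KO+R libraries 8.37, 7.83 and 9.53. The library labelled WT 1 therefore lay at the KO level, and the main counts, calls and fold changes against WT are also given without it. The 12 endothelial markers were all detected, led by Cdh5 at 2452 to 5186 CPM, and no neuronal, oligodendrocyte or microglial list summed to more than 28.6 CPM in any library. Mural markers summed to 71.6 to 2490 CPM, led by Tagln at 37.8 to 1858 CPM, and Kcnj8 and Abcc9 of that list stayed under 1 CPM. Fibroblast markers summed to 4.79 to 202 CPM, led by Col1a1, with Lum and Dpt at 0 in every library, and astrocyte markers to 32.8 to 109.6 CPM, nearly all of it Gja1.

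Levels between genes were compared as TPM, which corrects for transcript length. Gapdh, the glyceraldehyde phosphate dehydrogenase, was the most abundant of the 36 genes, with a median of 3080 TPM over the 16 libraries. Aldoa, an aldolase, followed at 1239 TPM, Pkm, the pyruvate kinase, at 1131 TPM and Eno1, the enolase, at 942 TPM. The ranges of Aldoa (1007 to 1816 TPM) and Pkm (679 to 2473 TPM) overlapped, as did those of Pkm and Eno1 (564 to 1866 TPM), so that the order of these neighbours was not fixed. Next were Pgk1 at 656, Ldha at 576, Gpi1 at 412 and Pgam1 at 374 TPM, and the most abundant member outside glycolysis was Epas1, the HIF alpha subunit typical of endothelium, at 334 TPM. Hif1a had a median of 96.6 TPM.

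Of isozymes, a single form dominated in most steps. Hk1 (median 105 TPM) stood above Hk2 (0.676 TPM) in every library, and Aldoa above Aldoc, which did not exceed 0.616 TPM. Ldha (576 TPM) stood above Ldhb (31.2 TPM) and Eno1 above Eno2 (0.562 TPM). The 3 phosphofructokinases were closer together, with medians of 81.0 TPM for Pfkl, 77.0 for Pfkp and 37.0 for Pfkm. Slc2a3, a glucose transporter known from neurons, held at most 6 counts in any library, and Aldoc at most 4. These 2 genes did not pass the filter on low counts, which left 34 members (21 enzymes, regulators and transporters, and 13 others) in the tests.

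Several members share sequence with other genes. Gapdh has 192 annotated near-identical copies, to which between 2.43 and 8.6% of the reads of the family were assigned. For Pgam1 the share was at most 4.97% and for Ldhb at most 0.752%. Genes whose exons overlap another gene are uncertain as well. A gene on the opposite strand, which these unstranded libraries cannot tell apart, covered 81.4% of the exonic bases of Ankrd37, 44.1% of Slc16a3, 41.6% of Gapdh and 39.8% of Pfkl. The overlap was 43.8% for Aldoa, with 1.56% on the opposite strand, and 40.6% for Pkm, with 17.1% on the opposite strand.

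The first question was how loss of Ccm3 altered these genes in untreated cells. Of the 21 tested enzymes, regulators and transporters, 19 stood lower in KO than in WT, but no member passed the threshold of an adjusted p-value under 0.05 with a fold change above 1.5 (edgeR quasi-likelihood test, Benjamini-Hochberg adjustment). Of all 14838 tested genes, 0.00674% were called. At an unadjusted p under 0.05, 14 of 34 members were lower and 0 higher, where 2.77% of all tested genes were lower and 3.3% higher. These 14 were Pfkfb3, Gpi1, Pfkl, Tpi1, Gapdh, Pgk1, Pgam1, Eno1, Pkm, Ldha, Pdk1, Pdk3, Egln3 and P4ha1. The median log2 fold change was −0.49 over the 21 enzymes, regulators and transporters, −0.20 over the 13 others and −0.01 over all tested genes. Mitochondrial genes held 2.30, 2.37 and 2.07% of the counts in KO 1, 2 and 3 and 1.48, 1.88 and 1.26% in WT 1, 2 and 3. The part of this difference in the member values was not tested.

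Pfkfb3, which makes the fructose bisphosphate that activates phosphofructokinase, held 123, 73.3 and 142 CPM in WT 1, 2 and 3 and 54.7, 47.9 and 36.2 CPM in KO 1, 2 and 3. Every KO library lay under every WT library. The log2 fold change was −1.29 ± 0.24 (SE), with an adjusted p of 0.262 by edgeR and 0.000514 by DESeq2, which called 0.398% of all tested genes. Egln3, a prolyl hydroxylase that acts on HIF and is itself a HIF target, held 131, 57.1 and 82.9 CPM in WT and 46.5, 35.1 and 16.9 CPM in KO (log2 fold change −1.46 ± 0.46, SE). The groups did not overlap, and the same-numbered pairs differed by between −2.29 and −0.70 on the log2 scale.

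P4ha1, the catalytic subunit of a collagen prolyl hydroxylase, held 171, 127 and 150 CPM in WT and 114, 102 and 78.5 CPM in KO, a log2 fold change of −0.60 ± 0.17 (SE). Pgk1, the phosphoglycerate kinase, held 916, 752 and 792 CPM in WT and 564, 558 and 446 CPM in KO (−0.65 ± 0.20, SE). Neither gene overlapped between the groups. Gapdh, which the study used as the reference gene of its RT-qPCR, held 3275, 2541 and 2582 CPM in WT and 2431, 2030 and 1992 CPM in KO. Each KO library again lay under each WT library, with a log2 fold change of −0.38 ± 0.16 (SE) and an adjusted p of 0.738 by edgeR.

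Gpi1, the glucose phosphate isomerase, held 724, 616 and 697 CPM in WT and 577, 493 and 482 CPM in KO, again without overlap. Further down the pathway, Tpi1 (log2 fold change −0.77 ± 0.31, SE), Pfkl (−0.86 ± 0.31), Ldha (−0.59 ± 0.23) and Pkm (−0.49 ± 0.18) were lower in each same-numbered pair, but their groups overlapped. Pdk1 and Pdk3, kinases that inhibit pyruvate dehydrogenase in mitochondria, had log2 fold changes of −0.76 and −0.46. In all, 9 of 34 members had every KO library under every WT library, where 6.5% of all tested genes did. In 23 of 34 members KO was lower in every same-numbered pair, where 22.2% of all tested genes were.

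The HIF alpha subunits did not share this direction. Hif1a held 264, 222 and 256 CPM in WT and 330, 285 and 279 CPM in KO, so that the KO libraries lay above the WT libraries, with a log2 fold change of 0.27 ± 0.15 (SE) and an adjusted p of 0.941 by edgeR. Epas1 held 812, 1130 and 721 CPM in WT and 1054, 1349 and 1288 CPM in KO, with overlap (log2 fold change 0.47 ± 0.38, SE). Of the other members, Ero1a, P4ha2 and Mxi1 differed little, with log2 fold changes of 0.00, −0.05 and −0.06. Ankrd37 (mean 42.6 CPM in WT and 26.7 in KO), Egln1 (101 and 78.7), Higd1a (61.9 and 47.3) and Kdm3a (40.4 and 33.9) were lower in KO, with overlap. Bhlhe40 held 172, 165 and 162 CPM in WT and 181, 190 and 182 in KO, without overlap. In all, 2 of 34 members had every KO library above every WT library, where 6.69% of all tested genes did. Ndrg1, a stress-response gene, ranged from 52.1 to 301 CPM in WT and from 70.1 to 207 CPM in KO, and was highest in the library numbered 1 of both groups.

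Without the library labelled WT 1, fewer members stood out. At an unadjusted p under 0.05, 5 of 34 members were then lower (Pfkfb3, P4ha1, Pgk1, Gpi1 and Egln3) and 0 higher, where 2.89% of all tested genes were lower and 2.85% higher. The median log2 fold change became −0.35 over the 21 enzymes, regulators and transporters and 0.004 over the 13 others. The log2 fold change was −1.23 for Pfkfb3, −1.10 for Egln3, −0.57 for Pgk1, −0.51 for P4ha1 and for Eno1, −0.41 for Pkm, −0.35 for Gpi1 and −0.26 for Gapdh. For Pfkl, Tpi1 and Ldha it was −0.45, −0.40 and −0.35, and it was −0.50 for Pdk1, −0.43 for Pdk3, 0.31 for Hif1a and 0.40 for Epas1. As before, 9 of 34 members had every KO library under the remaining WT libraries, where 11.9% of all tested genes did, and 23 of 34 were lower in both remaining pairs, where 31.1% of all tested genes were. This library held the highest CPM of the 3 WT libraries for Gapdh, Pgk1, Egln3, P4ha1 and Gpi1 and the lowest for Hk2 (1.06 CPM, against 4.07 and 2.83) and Eno2. When DESeq2 was run with a replicate block, a term for the replicate number, it called 7 members lower, namely Pfkfb3, Egln3, Pgk1, P4ha1, Pfkl, Tpi1 and Eno1, where 2.67% of all tested genes were called. Without WT 1 this fit called 3, Pfkfb3, Egln3 and Pgk1, where 3.52% of all tested genes were called. Mural markers summed to 386 ± 397 CPM (SD) in WT, with 96.7 CPM in WT 1, and to 143 ± 67.5 in KO. In WT 2, Tagln and Acta2 held 659 and 170 CPM of a sum of 839. Of the 8 mural markers tested, 5 were higher and 3 lower in KO, with a median log2 fold change of 0.19. At an unadjusted p under 0.05, 1 was lower and 0 higher. The part of these markers in the member differences was not tested.

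**Figure D1:**
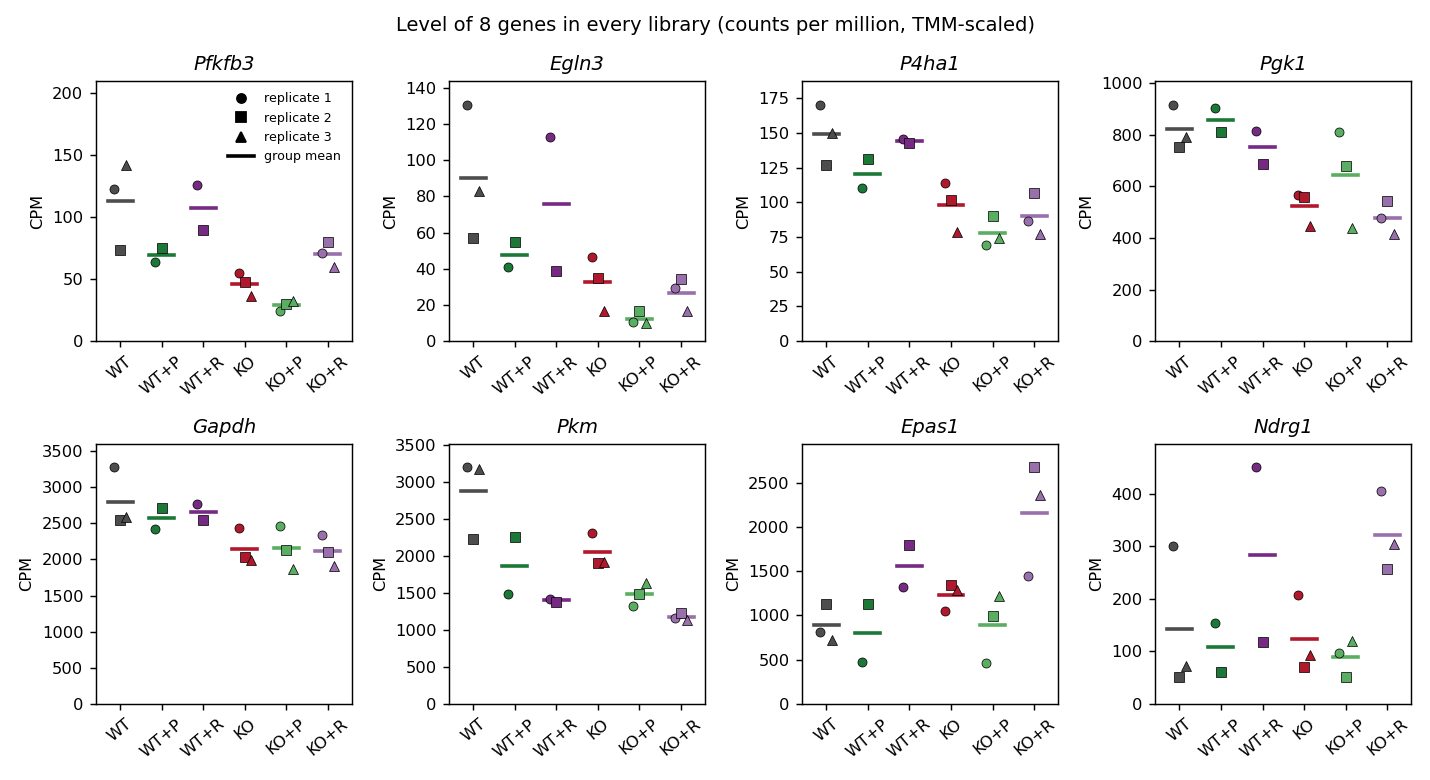
Level of 8 genes in each library as CPM (vertical axis, linear, from 0) in the 6 groups. Points are libraries, their shape gives the replicate number and bars are group means. Pfkfb3, Egln3, P4ha1, Pgk1 and Gapdh lie lower in KO than in WT, with no overlap, and Pkm is lowest in KO+R at 1136 to 1228 CPM.

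Promoter sequence is shown for members that were low together in KO, since HIF is known to bind the core letters ACGTG or GCGTG. Of the 4 members with the smallest unadjusted p, P4ha1, Pgk1 and Egln3 have a RefSeq start whose 250 preceding bases overlap their annotated exons by 30 bases or fewer. The bases are printed 5′ to 3′ along the gene, in lower case, with each ACGTG or GCGTG on either strand in capitals (the reverse strand reads CACGT or CACGC). They were taken from RefSeq windows of the build GRCm38.p6, and their place in GRCm39 was found by an exact match.
P4ha1: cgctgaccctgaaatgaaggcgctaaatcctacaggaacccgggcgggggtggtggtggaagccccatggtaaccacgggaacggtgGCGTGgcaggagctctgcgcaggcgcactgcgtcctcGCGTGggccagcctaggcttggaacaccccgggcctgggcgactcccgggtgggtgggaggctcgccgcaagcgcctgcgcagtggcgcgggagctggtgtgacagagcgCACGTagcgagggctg
Pgk1: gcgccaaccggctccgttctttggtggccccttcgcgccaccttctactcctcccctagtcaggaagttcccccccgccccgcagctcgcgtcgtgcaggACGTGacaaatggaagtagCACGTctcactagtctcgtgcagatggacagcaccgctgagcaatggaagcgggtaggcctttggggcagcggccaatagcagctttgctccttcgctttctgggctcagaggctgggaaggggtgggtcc
Egln3: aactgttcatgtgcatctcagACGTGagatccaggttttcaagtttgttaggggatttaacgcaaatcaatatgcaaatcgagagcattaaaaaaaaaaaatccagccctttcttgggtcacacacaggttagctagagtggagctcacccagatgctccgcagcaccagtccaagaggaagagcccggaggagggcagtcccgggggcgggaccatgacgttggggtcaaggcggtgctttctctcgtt
In GRCm39 the P4ha1 window is chr10:59158868-59159117 (+), with 1 ACGTG and 2 GCGTG. The Pgk1 window is chrX:105230456-105230705 (+), with 2 ACGTG in opposite orientation, and the Egln3 window is chr12:54250661-54250910 (−), with 1 ACGTG.

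Over windows of 300 bases (250 before and 50 after a RefSeq start), 32 of the 36 members had at least 1 window, which gave 49 windows. ACGTG lay in 53.1% of these windows and in 19.6% of all 32851 windows, and GCGTG in 53.1% and 32.4%. By gene, ACGTG was found in 13 of 22 enzymes, regulators and transporters and in 9 of 10 other members. Of all 27025 gene symbols with a window, 21.8% held it. Members are known HIF targets in large part, so this count describes the list and is not a result about Ccm3. The palindrome CACGTG, a site of the E-box type that holds ACGTG on both strands, lay in 8.16% of the members' windows and 7.15% of all windows.

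Genotype was also compared within each drug. In KO+P against WT+P, no member was called by edgeR, where 0.0% of all tested genes were called; at an unadjusted p under 0.05, 8 members were lower and 1 higher (3.48% and 2.7% of all tested genes). DESeq2 called 2, Pfkfb3 and Egln3, where it called 0.377% of all tested genes, and with the replicate block also Ankrd37, where 1.7% were called. In KO+R against WT+R the counts were 8 lower and 1 higher (2.65% and 3.07% of all tested genes), again with none called by edgeR or DESeq2, where edgeR called 0.0% and DESeq2 0.472% of all tested genes. Mural markers moved beside these values, summing to 902 ± 700.4 CPM (SD) in WT+P and 233 ± 175 in KO+P, and to 1977 ± 725 in WT+R and 348 ± 93.8 in KO+R. Of the 8 tested, 2 and 3 were lower at that p and 0 and 1 higher. By sign alone, 5 and 3 were lower and 3 and 5 higher, with median log2 fold changes of −0.27 and 0.12. Mitochondrial genes held 1.66 to 2.17% of the counts in KO+P and 0.97 to 1.70% in WT+P. Their share was 2.23 to 2.90% in KO+R and 1.57 to 1.88% in WT+R. The part of these values in the member differences was not tested. At that p, Pfkfb3, Egln3, Pfkl, Eno1, Ldha and P4ha1 were lower in both comparisons and Bhlhe40 was higher in both. Bhlhe40 is a transcriptional repressor and HIF target. These comparisons use other libraries than KO against WT, although the cultures share replicate numbers. Every KO+P library lay under every WT+P library for 15 of 34 members and above for 1. Of all tested genes 8.77% lay under and 7.8% above. Every KO+R library lay under every WT+R library for 11 members and above for 0. Of all tested genes 9.79% lay under and 9.43% above.

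Egln3 held 40.7 and 54.8 CPM in WT+P and 10.5, 16.9 and 9.76 CPM in KO+P, a log2 fold change of −1.95 ± 0.51 (SE) with an adjusted p of 0.481 by edgeR. The groups did not overlap. In WT+R it held 113 and 38.7 CPM and in KO+R 29.3, 34.3 and 16.7 CPM, again without overlap. P4ha1 held 110 and 131 CPM in WT+P and 69.0, 90.5 and 74.2 CPM in KO+P. In WT+R it held 146 and 143 CPM and in KO+R 86.9, 107 and 77.4 CPM, so it stood apart by genotype under each treatment.

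**Figure D2:**
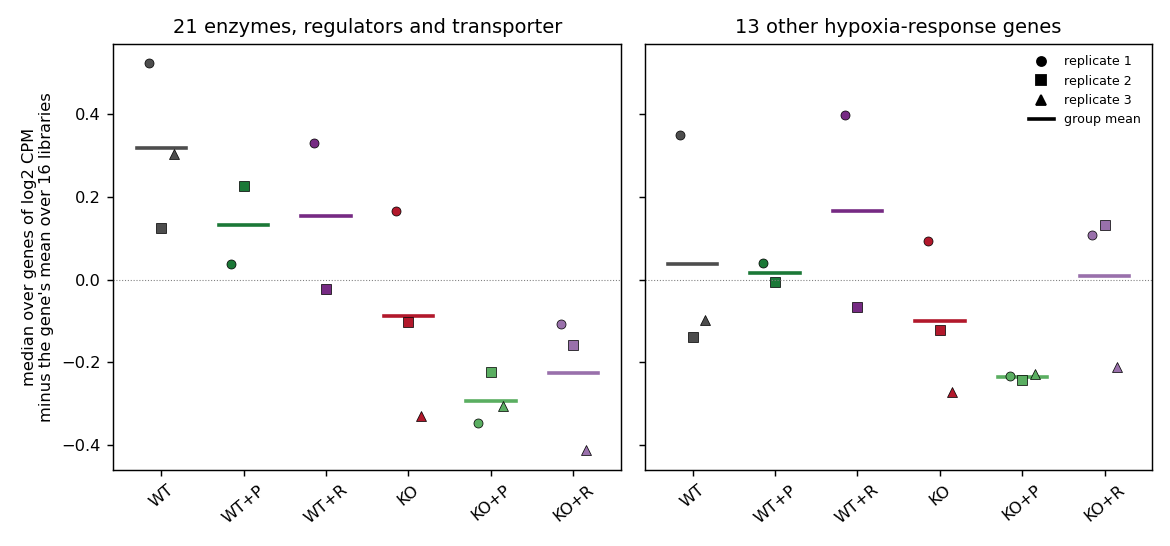
For each library, the median over 21 enzymes, regulators and the transporter (left) and over 13 other hypoxia-response genes (right) of log2 CPM after subtraction of each gene's mean over 16 libraries. Points are libraries, their shape gives the replicate number and bars are group means. On the left the mean is highest in WT (0.32) and lowest in KO+P (−0.29). On the right the KO+P libraries (−0.24 to −0.23) lie under every library of the other groups but KO 3, those other groups overlap, and WT 1 (0.35) lies above the other WT libraries.

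Per library, the median of the 21 enzymes, regulators and transporters was 0.32 ± 0.20 (SD, n = 3) on the centred log2 scale in WT, 0.13 ± 0.13 (n = 2) in WT+P and 0.15 ± 0.25 (n = 2) in WT+R. It was −0.09 ± 0.25 (n = 3) in KO, −0.29 ± 0.06 (n = 3) in KO+P and −0.23 ± 0.16 (n = 3) in KO+R. WT and KO overlapped, because KO 1 (0.17) lay above WT 2 (0.13). WT 1 was the highest WT library (0.52). The 13 other members had group means between −0.23 in KO+P and 0.17 in WT+R.

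The next question was what propranolol did. In KO+P against KO, no member was called, where 0.00674% of all tested genes were called by edgeR. DESeq2 called none, where it called 1.03% of all tested genes, and with the replicate block it called Egln3, where 5.94% were called. At an unadjusted p under 0.05, 6 members were lower (Hk1, Pfkm, Pkm, Pfkfb3, Egln1 and Egln3) and 3 higher (Pfkp, Ero1a and Bhlhe40), where 5.67% of all tested genes were lower and 6.93% higher. In WT+P against WT, none was called by edgeR or DESeq2, where edgeR called 0.00674% and DESeq2 0.762% of all tested genes. Here 4 members were lower (Pkm, Pfkfb3, Gpi1 and Pfkm) and 2 higher (Pfkfb4 and Ero1a) at that p, against 3.17% and 6.7% of all tested genes. Without WT 1, 1 member was lower and 1 higher, against 1.41% and 4.21% of all tested genes. The same-numbered WT pairs went opposite ways: 18 of the 21 enzymes, regulators and transporters were lower in pair 1 (median −0.69 on the log2 scale) and 17 were higher in pair 2 (median 0.04). The 2 comparisons share no library, and each has its own controls. Every KO+P library lay under every KO library for 8 of 34 members and above for 1. Of all tested genes 9.1% lay under and 9.58% above. Every WT+P library lay under every WT library for 5 members and above for 5. Of all tested genes 10.3% lay under and 10.8% above.

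Hk1, the main hexokinase of these cells, held 281, 251 and 268 CPM in KO and 172, 197 and 238 CPM in KO+P, without overlap (log2 fold change −0.40 ± 0.13, SE, adjusted p = 0.315 by edgeR). In WT it held 344, 265 and 309 CPM and in WT+P 245 and 273 CPM, with overlap. Pfkfb3 held 24.4, 29.8 and 32.7 CPM in KO+P, under each KO library, and 64.0 and 75.3 CPM in WT+P, where WT+P 2 lay above WT 2. Its log2 fold changes were −0.68 ± 0.24 and −0.69 ± 0.27 (SE), the second −0.64 without WT 1. Egln3 differed between KO+P and KO by −2.14 to −0.79 on the log2 scale in the same-numbered pairs, but KO 3 lay within the range of KO+P.

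Of the members that stood higher with propranolol, Bhlhe40 held 181, 190 and 182 CPM in KO and 235, 269 and 212 CPM in KO+P, without overlap (log2 fold change 0.37 ± 0.12, SE, adjusted p = 0.315 by edgeR). Ero1a, an oxidase of the endoplasmic reticulum, held 89.6, 89.7 and 80.9 CPM in KO and 168, 142 and 89.1 in KO+P. In WT it held 97.6, 83.2 and 79.1 CPM and in WT+P 185 and 93.0, so that the increase was largest in the libraries numbered 1 and the groups overlapped. Pfkfb4, an isozyme of Pfkfb3, was rare, at 1.56, 1.91 and 1.85 CPM in WT, 4.62 and 2.64 in WT+P, 2.63, 2.85 and 1.60 in KO and 5.12, 3.67 and 2.07 in KO+P. Its groups overlapped in KO and not in WT, where the log2 fold change was 1.03 ± 0.38 (SE), or 0.94 without WT 1.

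Endothelial markers moved beside these values. All 12 were lower in KO+P than in KO and in WT+P than in WT, with 3 and 4 of them at an unadjusted p under 0.05, and their sum was 14090 ± 841 CPM (SD) in KO, 10800 ± 2165 in KO+P, 14890 ± 1741 in WT and 10210 ± 3131 in WT+P. Astrocyte markers summed to 59.3 ± 15.8 CPM in KO, 89.2 ± 18.8 in KO+P, 50.8 ± 23.9 in WT and 79.7 ± 11.4 in WT+P. Neuronal markers summed to 8.44 ± 1.85, 16.5 ± 10.4, 6.64 ± 4.24 and 14.7 ± 7.91 CPM in the same order. Nearly all of this was Tubb3, while Rbfox3, Snap25, Syt1 and Map2 stayed under 1 CPM in every library. Mural markers summed to 143 ± 67.5, 233 ± 175, 386 ± 397 and 902.5 ± 700.4 CPM. By sign, 6 and 5 of the 8 mural markers tested were lower with propranolol in KO and WT. The part of these differences in the member values was not tested. In bulk libraries fewer cells of a type and less RNA per cell cannot be told apart.

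Rapamycin gave the only calls of edgeR among the members. Pkm, which makes pyruvate in the last step of glycolysis, fell in KO+R against KO and in WT+R against WT. These comparisons called 1.51% and 1.4% of all tested genes. DESeq2 likewise called Pkm in each, where it called 3.19% and 3.66% of all tested genes. At an unadjusted p under 0.05, 3 members were lower in KO+R (Pkm, Pfkm and Pfkfb4) and 2 higher (Mxi1 and Pfkfb3), where 6.55% of all tested genes were lower and 6.0% higher. In WT+R, 3 were lower (Pkm, Pfkm and Gpi1) and 1 higher (Mxi1), against 6.47% and 6.18% of all tested genes. Without WT 1 the counts in WT+R were 3 lower and 2 higher, against 5.8% and 5.75%, and Pkm was not called by edgeR (log2 fold change −0.96, adjusted p = 0.0874). DESeq2 without WT 1 called Pkm, Mxi1 and Ndrg1, and with the block Epas1 too, where 3.09% and 5.21% of all tested genes were called. The medians over the 21 enzymes, regulators and transporters were −0.13 and −0.16 on the log2 scale (0.003 in KO+R without KO 1 and −0.003 in WT+R without WT 1), and −0.02 and −0.01 over all tested genes. Every KO+R library lay under every KO library for 5 of 34 members and above for 5. Of all tested genes 13.2% lay under and 10.9% above, near the share of the members. Every WT+R library lay under every WT library for 5 members and above for 1. Of all tested genes 14.7% lay under and 14.0% above.

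Pkm held 2311, 1902 and 1917 CPM in KO 1, 2 and 3 and 1163, 1228 and 1136 CPM in KO+R 1, 2 and 3. In WT it held 3192, 2232 and 3176 CPM and in WT+R 1413 and 1380 CPM. In both genotypes every rapamycin library lay under every control library, and the 5 rapamycin libraries were close together. The log2 fold changes were −0.80 ± 0.18 (SE) with an adjusted p of 0.0476 in KO, and −1.04 ± 0.21 with an adjusted p of 0.0282 in WT (edgeR). Fits without 1 of the 6 KO and KO+R libraries called 0.344 to 0.59% of all tested genes. The Pkm call in KO was lost in each of them, with adjusted p-values from 0.113 to 0.193 (edgeR) and log2 fold changes from −0.70 to −0.85. In WT it was lost without WT 1, WT 3, WT+R 1 or WT+R 2. With the replicate block the adjusted p-values were 0.0237 and 0.0179 (edgeR). With propranolol Pkm held 1326, 1480 and 1625 CPM in KO+P, under each KO library, and 1479 and 2246 CPM in WT+P, where WT+P 2 lay above WT 2. These log2 fold changes were −0.47 ± 0.18 and −0.62 ± 0.21 (SE), the second −0.55 without WT 1, with adjusted p-values of 0.353 and 0.42 (edgeR).

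Pkm is spliced into either of 2 isoforms, M1 or M2, by the choice between neighbouring exons of equal length, and M2 is the form known from proliferating cells. The exons are shown because the transcripts compared below are named by which of the 2 they hold. Reads on the exons themselves were not counted. Both are coding exons of 167 bases on the plus strand of chromosome 9 in GRCm39, the M1 exon at chr9:59582312-59582478 and the M2 exon at chr9:59582851-59583017. Read 5′ to 3′ from the genome and set base against base without gaps, they differ at 64 positions (61.7% identical), which are in capitals.
Pkm M1 exon: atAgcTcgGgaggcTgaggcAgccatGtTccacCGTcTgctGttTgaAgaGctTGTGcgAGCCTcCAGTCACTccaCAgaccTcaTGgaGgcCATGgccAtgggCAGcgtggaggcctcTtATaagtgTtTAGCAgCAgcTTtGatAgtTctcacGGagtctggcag
Pkm M2 exon: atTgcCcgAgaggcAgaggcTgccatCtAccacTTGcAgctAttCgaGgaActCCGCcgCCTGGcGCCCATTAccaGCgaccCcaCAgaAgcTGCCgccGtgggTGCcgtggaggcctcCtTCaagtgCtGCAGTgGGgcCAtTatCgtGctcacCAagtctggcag
Of the 11 annotated Pkm transcripts, 1 holds the M1 exon, 1 the M2 exon and 9 neither.

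The M2 transcript held 2908, 1785 and 2543 CPM in WT, 1311 and 1105 in WT+R, 2097, 1530 and 1557 in KO and 1084, 1025 and 947 in KO+R. The M1 transcript held 275, 440 and 617 CPM in WT, 98.4 and 271 in WT+R, 209, 364 and 354 in KO and 77.9, 197 and 185 in KO+R. Both forms were lower with rapamycin in each same-numbered pair, with differences of −1.15 to −0.58 on the log2 scale for M2 and −1.48 to −0.70 for M1. The M1 share of the 2 forms followed the replicate number: it was 6.7 to 9.28% in the libraries numbered 1, between 16.1 and 21% in those numbered 2 and 16.4 to 19.5% in those numbered 3. Within the same-numbered pairs it was lower with rapamycin in 5 of 5, by little in WT 2 (19.8 to 19.7%). In percentage points it fell most in KO 2 (19.2 to 16.1%), whereas KO 1 started lower (9.07 to 6.70%). With propranolol it was lower in the 3 KO pairs and higher in the 2 WT pairs. These are Salmon's estimates of how reads divide between transcripts, and no test was run on them.

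**Figure D3:**
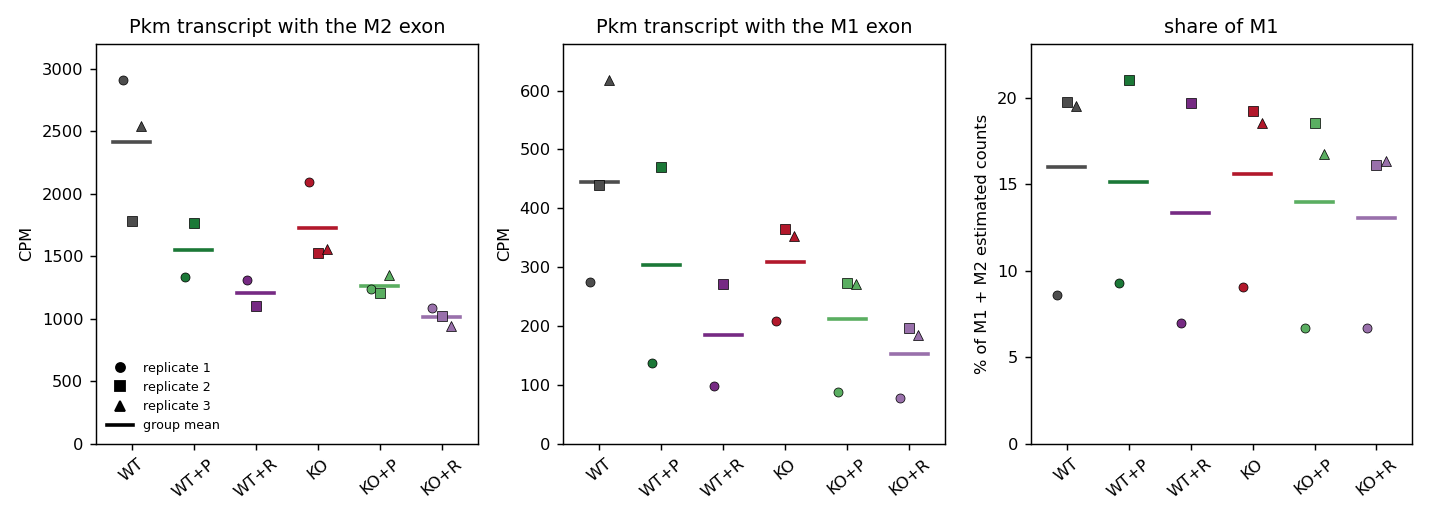
Estimated CPM of the Pkm transcripts with the M2 exon (left) and the M1 exon (middle), and the share of M1 in the sum of both in percent (right), by group on linear axes from 0. Points are libraries, their shape gives the replicate number and bars are group means. Both forms are lower with rapamycin, while the share of M1 is under 9.3% in each library numbered 1 and above 16% in the others.

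Of the other enzymes, Pfkm, the muscle-type phosphofructokinase, held 84.0, 70.4 and 72.6 CPM in KO and 52.4, 62.8 and 55.9 in KO+R, and 94.1, 75.6 and 81.0 in WT and 58.4 and 56.9 in WT+R. It did not overlap between control and rapamycin in either genotype, with log2 fold changes of −0.41 ± 0.16 and −0.54 ± 0.18 (SE) and adjusted p-values of 0.302 and 0.201 (edgeR). The rare Pfkfb4 held 1.54, 1.44 and 1.16 CPM in KO+R, under each KO library, with a log2 fold change of −0.78 ± 0.36 (SE). With propranolol Pfkm held 46.6, 59.0 and 69.4 CPM in KO+P and 50.7 and 72.6 in WT+P, under the controls in both genotypes. Gpi1 held 554 and 472 CPM in WT+R, under each WT library, and 480, 464 and 476 CPM in KO+R, under each KO library, with KO 3 (482 CPM) close by. Pfkfb3, at 70.8, 79.8 and 60.0 CPM in KO+R, lay above each KO library (log2 fold change 0.60 ± 0.23, SE, adjusted p = 0.291 by edgeR), whereas WT+R, at 126 and 90.02 CPM, lay within the range of WT.

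Among the 13 other members, Mxi1, a repressor that opposes MYC, held 57.4, 44.7 and 47.1 CPM in KO and 73.5, 73.2 and 70.3 in KO+R, without overlap (log2 fold change 0.54 ± 0.20, SE, adjusted p = 0.272 by edgeR). In WT it held 70.7, 39.6 and 44.99 CPM and in WT+R 88.3 and 57.9, with overlap by WT 1. Ndrg1 held 207, 70.1 and 92.5 CPM in KO and 405, 257 and 305 in KO+R. It stood higher in each pair, by 0.97 to 1.87 on the log2 scale. The log2 fold change was 1.39 ± 0.69 (SE), with an adjusted p of 0.445 by edgeR, and with the replicate block it was called, at 1.56 and an adjusted p of 0.0255 (edgeR). With the block 4.98% of all tested genes were called in KO+R against KO and 4.56% in WT+R against WT. In WT+R Ndrg1 held 451 and 117 CPM against 301, 52.1 and 72.9 in WT, higher by 0.58 and 1.17 on the log2 scale in the same-numbered pairs. The log2 fold change was 1.00 ± 0.75 (SE), and 1.01 with the block (adjusted p = 0.17 by edgeR). Without the block it was −0.27 without WT+R 1 and 2.18 without WT 1.

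Epas1 held 1443, 2673 and 2364 CPM in KO+R and 1319 and 1799 CPM in WT+R, above each library of their own controls. The log2 fold change was 0.81 in both genotypes (SE 0.38 and 0.42), with adjusted p-values of 0.404 and 0.461 by edgeR, and 0.0163 and 0.0244 by DESeq2 with the replicate block, which called 7.6% and 6.6% of all tested genes. Without WT 1 the log2 fold change in WT+R was 0.75. With propranolol it held 462, 993 and 1215 CPM in KO+P and 472 and 1132 CPM in WT+P, so that the library numbered 1 was lowest in both. Hif1a held 240, 363 and 290 CPM in KO+R, 215 and 250 in WT+R, 263, 330 and 279 in KO+P and 265 and 265 in WT+P. Its log2 fold change was −0.00 in KO+R and −0.09 in WT+R against the controls, and −0.04 and 0.10 with propranolol. Gapdh differed from the controls by −0.02 in KO+R, −0.08 in WT+R, 0.00 in KO+P and −0.12 in WT+P on the log2 scale, each smaller than its standard error; without WT 1 it was 0.05 in WT+R and −0.004 in WT+P.

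The difference between genotypes in the response to a drug was tested as an interaction. No member was called for propranolol or for rapamycin, and 0.0% of all tested genes were called for either by edgeR. The number of members at an unadjusted p under 0.05 was 0 in each. DESeq2 called 0 members, where it called 0.0% of all tested genes for propranolol and 0.00674% for rapamycin. Without WT 1 edgeR also called 0 members, and 0.0% of all tested genes for either drug. For Pkm and rapamycin the interaction was 0.24 ± 0.27 (SE) on the log2 scale, with an adjusted p of 1 by edgeR. For Pfkfb3, which lay higher in KO+R than in KO and within the WT range in WT+R, it was 0.67 ± 0.35, with an unadjusted p of 0.0815 and an adjusted p of 1 by edgeR. Mural markers summed to 1977 ± 725 CPM (SD) in WT+R against 386 ± 397 in WT, and to 348 ± 93.8 in KO+R against 143 ± 67.5 in KO. In WT+R, 3 of the 8 tested were higher at an unadjusted p under 0.05 and 1 was called by edgeR. By sign, 5 were higher and 3 lower. In KO+R, 1 was higher at that p and 0 were called, with 6 higher and 2 lower by sign. The median log2 fold changes were 0.40 and 0.22. Of the 12 endothelial markers, edgeR called 1 higher in each genotype, while 7 in WT+R and 6 in KO+R were lower by sign. Microglial and macrophage markers, nearly all of it Cd68, summed to 3.73 ± 2.62 CPM in WT+R against 9.01 ± 3.80 in WT, and to 5.91 ± 2.51 in KO+R against 17.3 ± 8.24 in KO, with 1 and 2 of the 3 tested lower at an unadjusted p under 0.05, P2ry12 at 0 and the other 4 under 1 CPM in every library. The part of these lists in the rapamycin results was not tested.

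**Figure D4:**
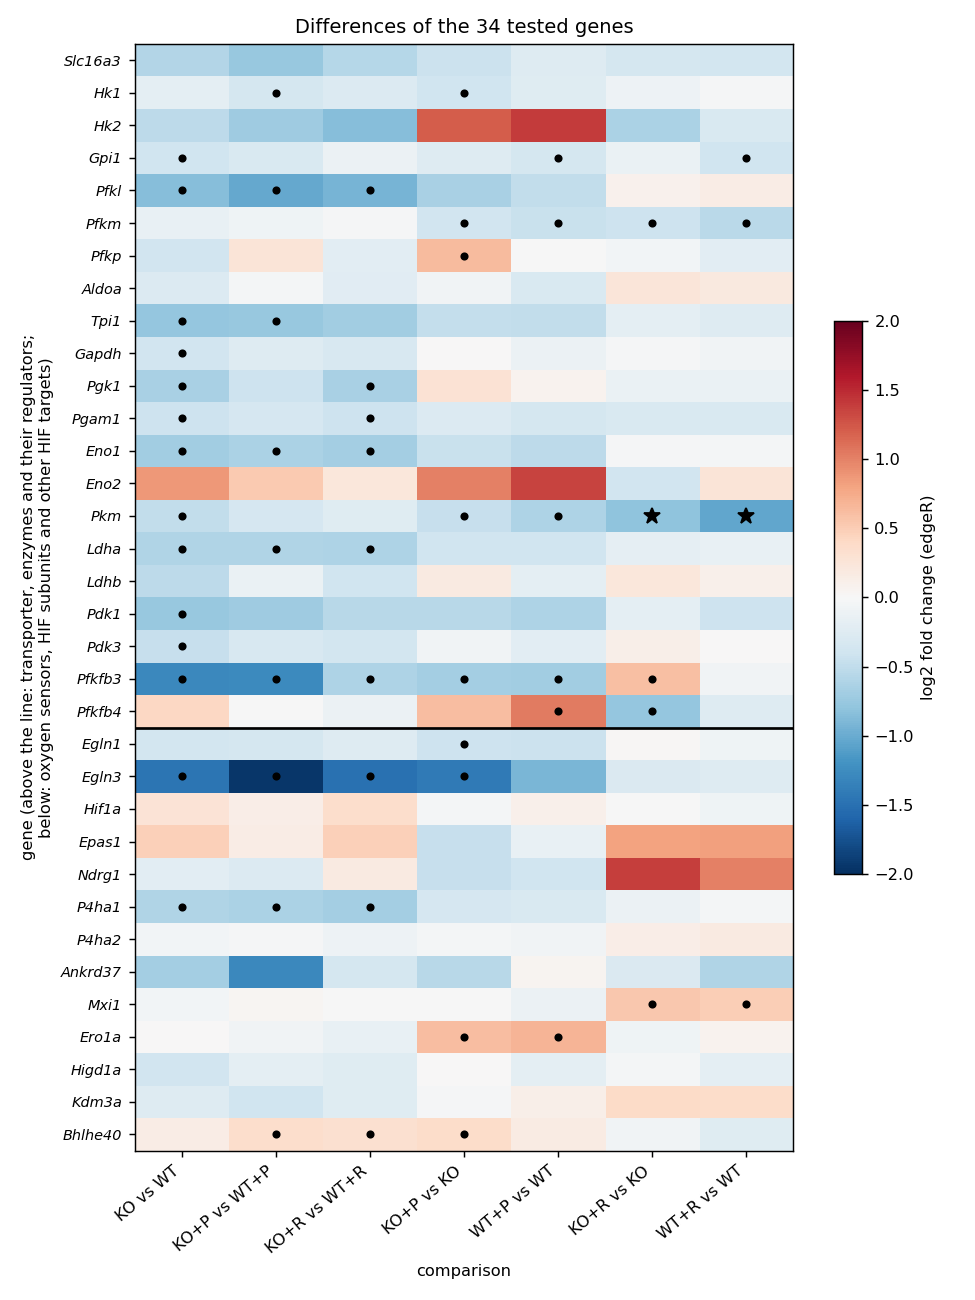
Log2 fold change (colour, blue lower, red higher) of the 34 tested members in 7 comparisons, with enzymes, regulators and the transporter above the line and the other members below it. Dots mark an unadjusted p under 0.05 and stars the called genes. The stars are Pkm in both rapamycin comparisons, and 14 dots lie in KO vs WT, all on lower values.

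Further genes of the pathways were taken from 2 longer lists, of 35 other glycolysis genes (24 tested) and 41 other hypoxia genes (39 tested). In KO against WT, 0 of them were called by edgeR. At an unadjusted p under 0.05, 1 glycolysis gene was lower and 0 higher, and 7 hypoxia genes were lower and 0 higher, beside the 2.77% lower and 3.3% higher over all tested genes. Without WT 1, 1 glycolysis gene and 2 hypoxia genes were lower, near the share of all tested genes in that fit (2.89%). Pgm1, a phosphoglucomutase that links glycogen to glycolysis, was the glycolysis gene, at 110, 73.1 and 89.0 CPM in WT and 70.8, 61.7 and 52.0 in KO. Vldlr, a lipoprotein receptor induced by HIF, held 78.7, 35.5 and 76.1 CPM in WT and 41.9, 26.3 and 23.9 in KO (log2 fold change −1.05 ± 0.32, SE, or −0.87 without WT 1). Ak4, a mitochondrial adenylate kinase, held 75.9, 34.7 and 47.9 CPM in WT and 34.3, 28.7 and 14.8 in KO. Ak4 and Pgm1 narrowly missed an overlap between the groups, whereas Vldlr overlapped.

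With rapamycin, 1 of the 24 glycolysis genes was called higher and 1 of the 39 hypoxia genes lower in each genotype, beside the 1.51% and 1.4% of all tested genes called in KO and WT. Bpgm, which makes the bisphosphoglycerate that branches off glycolysis, held 21.1, 20.99 and 20.2 CPM in KO and 49.4, 40.8 and 48.0 in KO+R. In WT it held 25.0, 24.0 and 25.8 CPM and in WT+R 52.9 and 63.9. The groups were far apart in both genotypes, with log2 fold changes of 1.15 ± 0.15 and 1.23 ± 0.17 (SE) and adjusted p-values of 0.00508 and 0.00541 (edgeR). The call held in 6 of 6 fits without a library in KO and in 4 of 5 in WT, where it was lost without WT+R 2 (adjusted p = 0.0552 by edgeR).

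Vldlr held 9.27, 12.0 and 11.4 CPM in KO+R and 19.1 and 13.1 CPM in WT+R, under each control library. Its log2 fold changes were −1.49 ± 0.33 and −1.98 ± 0.39 (SE), with adjusted p-values of 0.0402 and 0.0254 (edgeR). The call was lost in 6 of 6 fits without a library in KO and in 4 of 5 in WT, where it held only without WT 2 (adjusted p = 0.0109 by edgeR). Ccng2, a cyclin of arrested cells, held 47.1, 41.4 and 36.6 CPM in KO and 67.0, 64.5 and 60.9 in KO+R, and 56.0, 44.0 and 48.0 in WT and 81.0 and 73.7 in WT+R. Its adjusted p-values were 0.0531 and 0.0632 (edgeR), and 0.0291 and 0.0475 with the replicate block.

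With the block, under which 4.98% and 4.56% of all tested genes were called, 3 more hypoxia genes were called in both genotypes, and these are named for that reason. Inhba, a subunit of activin, held 44.6, 100.6 and 79.7 CPM in KO and 121, 149 and 177 in KO+R, and was called higher, with adjusted p-values of 0.0229 and 0.0364 (edgeR, block). Stc2, a secreted stanniocalcin, held 21.1, 8.69 and 5.82 CPM in KO and 3.28, 3.24 and 1.74 in KO+R and was called lower, as was Ddit4, an inhibitor of mTORC1, at 49.5, 38.1 and 40.01 CPM in KO and 24.7, 19.3 and 24.5 in KO+R. The genes called in both genotypes with the block stood on both sides, with Inhba, Ccng2 and Bpgm higher and Vldlr, Stc2 and Ddit4 lower.

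With propranolol, no gene of the longer lists was called by edgeR in KO or WT. Cited2, a HIF target that limits HIF activity, held 218, 284 and 275 CPM in KO and 1455, 911 and 549 in KO+P, and 248, 298 and 275 in WT and 1614 and 485 in WT+P. The groups did not overlap, and the log2 fold changes were 1.91 ± 0.41 and 1.94 ± 0.44 (SE), with adjusted p-values of 0.188 and 0.238 by edgeR and of 0.000541 and 0.00432 by DESeq2. Without WT 1 the change in WT was 1.87, with an adjusted p of 0.0576 by DESeq2. Vegfa, the growth factor of blood vessels, held 9.68, 6.79 and 5.73 CPM in KO and 36.9, 30.8 and 11.2 in KO+P, and 19.6, 9.12 and 11.7 in WT and 49.8 and 14.4 in WT+P. Its log2 fold change was 1.83 ± 0.48 (SE) in KO, with an adjusted p of 0.251 by edgeR and 0.0157 by DESeq2. For both genes the libraries numbered 1 were the highest with propranolol.

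Angptl4, an inhibitor of lipoprotein lipase, went the other way, from 201, 274 and 204 CPM in KO to 38.7, 93.3 and 81.4 in KO+P, without overlap (log2 fold change −1.67 ± 0.57, SE, adjusted p = 0.326 by edgeR). Slc2a4, a glucose transporter of muscle and fat, did not exceed 0.716 CPM in any library, and Plod1, a collagen lysyl hydroxylase, held 370, 210 and 252 CPM in WT and 180 and 208 in WT+P. Slc2a1, the glucose transporter of the blood-brain barrier, held 967, 687 and 696 CPM in WT and 697, 774 and 1058 in KO. Its log2 fold changes lay between −0.40 and 0.11 in KO against WT and in the 4 drug comparisons, none of them at an unadjusted p under 0.05, and it was 0.28 in KO against WT without WT 1.

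**Figure D5:**
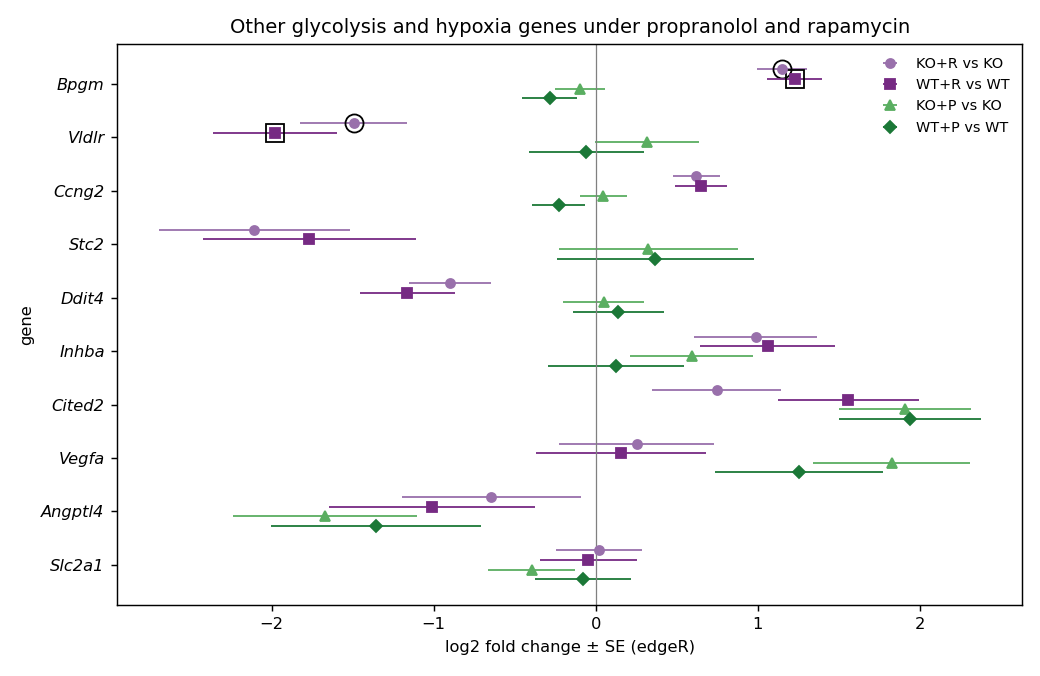
Log2 fold change with its standard error (bars) of 10 further glycolysis and hypoxia genes for rapamycin and propranolol in KO and WT cells. Open black outlines mark called genes, which are Bpgm and Vldlr with rapamycin. Inhba and Ccng2 lie to the right and Stc2 and Ddit4 to the left with rapamycin, and Cited2 and Vegfa lie furthest right with propranolol in KO.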

How the data were processed

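Per library, the authors deposited Salmon's estimated counts, TPM values and effective lengths for 140789 transcripts. The submitters' processing notes name Salmon 1.5.2, Trim Galore 0.6.7, STAR, HTSeq 0.13.5, DESeq2 1.34.0 and GRCm39. The study's methods describe alignment with STAR and counting by gene with HTSeq, whereas the deposited values are Salmon's. The transcript index is not given in the sources used here, and the deposited counts were not normalized between libraries. Transcripts were assigned to genes with GENCODE M39 (99.12% of transcripts, the rest holding 0.395 to 0.566% of counts), summed over 54193 genes and rounded. 0 columns were left unused. A fragment shared by near-identical genes is divided by estimation, which affects Gapdh most.

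Counts of 14838 genes that passed filterByExpr were fitted with edgeR 4.0.16 (R 4.3.3) in a quasi-likelihood model of all 16 libraries and 6 groups, with TMM factors (0.934 to 1.041) and 10 residual degrees of freedom. Counts varied between replicates with a biological coefficient of 32.3% (19% under the block described next), so the cultures rather than depth set the precision of all but rare genes. A call needed an adjusted p under 0.05 and a fold change above 1.5, or the adjusted p alone for interactions. DESeq2 1.42.0, median-of-ratios size factors, no filter, the groups compared alone, the replicate block and each library left out were the alternatives, and DESeq2 without WT 1 was added after seeing the data. The edgeR fit without the block was run on simulated counts for KO+R against KO only. These counts held no effect of the culture, and the other fits and comparisons were not simulated.

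The replicate block adds the replicate number to the model. Whether the number pairs libraries was examined on each library's departure from its group mean. Same-numbered libraries correlated at a median of 0.52 (36 pairs, 0.03 to 0.69, and 0.19 to 0.69 within the 7 comparisons). Others correlated at −0.23 (70 pairs, −0.69 to 0.40). Departures within a group sum to 0, which pushes the second median below 0, so it is not a separate contrast. The lowest same-numbered value, 0.03, was that of WT 3 and KO+P 3. The pairing was accepted from these values. The labels do not state it, although for RT-qPCR the study set treated cells against untreated WT cells from one culture. The results given are those without the block unless it is named.

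Values per library were given for the 4 members with the smallest p in each of 5 comparisons (KO vs WT and each drug against its control), the called members, and Gapdh, Hif1a and Epas1. From the longer lists, called genes, the 3 genes with the smallest p in each, Slc2a1 and Vegfa were named. Other genes were named after their values were seen. 1 further gene was taken off the longer hypoxia list, for a reason unrelated to its values, and is not reported here. The members and lists were chosen with earlier results of these data known. Marker lists were of endothelial, mural, fibroblast, astrocyte, microglial and macrophage, oligodendrocyte and neuronal genes.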

Additional observations from a re-analysis of the deposited data

How the results depend on the processing

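Depth limited only the rare members, with Slc2a3 and Aldoc untested and Hk2, Eno2 and Pfkfb4 under 8 CPM in every library. Gene identity is limited by copies and overlapping exons, and the KO and WT contrast by 4-OHT and by the library labelled WT 1. With 2 libraries in WT+P and WT+R, leaving out 1 leaves a lone library that is assumed to vary like the others. The cause of the changes below was not tested.

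Percentages in brackets are the share of all tested genes called by the same fit. The number of called members in KO vs WT was 0 by edgeR, and stayed at 0 without any replicate (0.0 to 0.0135%). It was 1 without a filter on low counts (0.0184%), 1 by DESeq2 (0.398%) and 7 by DESeq2 with the replicate block (2.67%). Without WT 1 these last were 1 (0.553%) and 3 (3.52%). In KO+P vs KO it was 1 by DESeq2 with the replicate block (5.94%) instead of 0. In KO+R vs KO it was 1 by edgeR (1.51%). It became 0 with median-of-ratios size factors (1.53%), 0 without a filter (0.878%) and 0 without each replicate in turn (0.344 to 0.59%). It was 2 with the replicate block (4.98%) and 3 by DESeq2 with the replicate block (7.6%), namely Pkm, Ndrg1 and Epas1. In WT+R vs WT it was 1 by edgeR, and 0 when only the groups compared were fitted (0.0576%). By DESeq2 with the replicate block it was 3 (6.6%), namely Pkm, Epas1 and Ankrd37. When WT 1 was left out, it was 3 by DESeq2 (3.09%) and 4 by DESeq2 with the replicate block (5.21%). By edgeR without a WT replicate it was 0 to 1 (0.548 to 0.949%). In WT+P vs WT it was 0 to 2 without a replicate (2, Pkm and Ero1a, without WT+P 2; 3.54%). In KO+P vs WT+P it was 2 by DESeq2 (0.377%) and 3 by DESeq2 with the replicate block (1.7%) instead of 0. The replicate block changed the call of no other member.

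The median log2 fold change of the enzymes, regulators and transporters stayed negative in KO vs WT (−0.53 to −0.35) and in KO+P vs KO (−0.38 to −0.17) without a replicate, in KO+R vs KO, −0.13, it ranged from −0.23 without KO 3 to 0.0031 without KO 1, and in WT+R vs WT, −0.16, it ranged from −0.38 without WT+R 1 to 0.043 without WT+R 2. That of the 13 other members ranged from −0.42 to 0.0044 in KO vs WT, from −0.26 to 0.17 in WT+P vs WT, from −0.15 to 0.16 in WT+R vs WT and from −0.37 to 0.23 in KO+R vs WT+R. By DESeq2 without WT 1 that of the 13 others was 0.014 (0.0057 with the replicate block) in KO vs WT, 0.17 in WT+P vs WT and 0.17 in WT+R vs WT. The log2 fold change of Ndrg1 in WT+R vs WT was 1.00 and ranged from −0.27 without WT+R 1 to 2.18 without WT 1.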
